A study of Homo sapiens with 12 samples.

Results

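The 9 genes described here serve the earliest steps of B-cell development, and were taken by symbol from the 26210 genes of the expression table. They are VPREB1 and IGLL1, RAG1 and RAG2, DNTT, CD34, MME, ERG and SOX4. All 9 had a value in each of the 12 libraries, and 8 of them passed the filter on low values, CD34 being the exception.

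A B cell builds its antigen receptor by cutting and rejoining V, D and J gene segments. RAG1 and RAG2 together form the recombinase that makes the cuts, and DNTT encodes terminal deoxynucleotidyl transferase, which adds untemplated bases at the joins. A newly made heavy chain is then tested by pairing with the surrogate light chain, whose parts are encoded by VPREB1 and IGLL1, in the pre-B cell receptor. CD34 is a surface sialomucin of haematopoietic stem and progenitor cells, and MME encodes the surface peptidase CD10 that is used as a marker of B-cell precursors and germinal centre B cells. ERG, a transcription factor of the ETS family, and SOX4, a transcription factor of the SOX family, act in haematopoietic progenitors, and SOX4 is needed for early B-cell development. Mature B cells normally have the recombinase and the surrogate light chain switched off.

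Total RNA depleted of ribosomal RNA was sequenced from 5 established human cell lines. L428, L1236 and KM-H2 are classical Hodgkin lymphoma (cHL) lines, Namalwa is a Burkitt's lymphoma line, and Reh is a B-cell precursor leukaemia line whose label calls it pro-B. Reh was also treated with phorbol myristate acetate (PMA), an activator of protein kinase C, at 2 ng/ml, and the exposure time of these libraries is not given in the sources used here. The other 5 groups were untreated, and each of the 6 groups had 2 libraries, called library 0 and library 1 after their columns. The cHL lines grew in IMDM and the control lines in RPMI, so medium and lymphoma type cannot be told apart. Nothing says that the 2 libraries of a group came from separate cultures, so the p-values measure only the spread between libraries, which may be technical. Each line stands for a single tumour.

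Values are FPKM, fragments scaled to transcript length and to the mapped total, which allows levels to be compared between genes. Read totals are not given, but the spacing of low values shows relative depth, because a single fragment adds a smaller value in a deeper library. Among genes under 1 FPKM in every library, the most common ratio put depth, relative to Reh library 0, at 2.3 for L1236 library 1, at 1.62 for both PMA libraries and at 0.379 for KM-H2 library 0. A value of 0 is therefore least informative in KM-H2 library 0. Within a group, log2 values of the 14679 genes tested correlated between the 2 libraries with r from 0.906 (L428) to 0.985 (Reh), a description across genes.

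The lines were checked against lineage markers. Summed FPKM of the B-lineage markers CD79A, CD79B, PAX5 and EBF1 was 876 and 961 in untreated Reh, 1021 and 1221 after PMA, and 852 and 1245 in Namalwa. The higher sum after PMA came from CD79A alone, which was not called, while CD79B, PAX5 and EBF1 were called lower after PMA by limma. With a term in the fit for library kind PAX5 was not called (-1.64, limma adjusted p = 0.0611, against -1.97 without it). The cHL sums lay between 2.55 (L428) and 34.7 (L1236), where PAX5 made up most of it. The cHL markers TNFRSF8, FSCN1, CCL17 and TRAF1 summed to between 131 and 1526 in the 6 cHL libraries and to at most 48.9 elsewhere, the highest being PMA-treated Reh. There TRAF1 was at 14.8 and 18.5 FPKM against 0.804 and 1.02 in untreated Reh, called higher by limma (3.20, adjusted p = 4.39e-05, and 2.66 with a term in the fit for library kind), and FSCN1 was called only with that term (1.63, adjusted p = 0.00804). T-cell markers (CD3D, CD3E, CD3G, CD2, CD5) summed to 26.5 and 17.8 in KM-H2, led by CD3D, and to at most 0.234 in any other library. Myeloid markers (CD14, LYZ, MPO, CSF3R, ITGAM) reached 28.3 and 34.7 in Reh, mostly MPO at 24.8 and 32, and 7.96 and 8.4 after PMA. KM-H2 had 9.05 and 15.6, mainly CD14 (4.56 and 5.79) and ITGAM (4.24 and 9.14), both called higher than in untreated Reh by limma (adjusted p = 9.14e-07 and 0.0286), while MPO, listed at 0 in KM-H2, was called lower (adjusted p = 0.000285). Stromal markers (COL1A1, COL1A2, COL3A1, DCN) summed to at most 4.85, and the erythroid markers HBB and HBA1 were listed at 0 in all 12 libraries. In bulk RNA, fewer expressing cells and less RNA per cell cannot be told apart.

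A second feature of the libraries bears on the PMA comparison. PLCG2, a phospholipase of B-cell receptor signalling, stood at 2.42 and 2.61 FPKM in the PMA libraries, at 4.26 in L428 library 1 and at 0.817 in L1236 library 1, against 298 to 404 in the other 8 libraries. EEF1A1, a translation factor of every cell, moved with it, at 462 and 585 FPKM after PMA, 1211 in L428 library 1 and 755 in L1236 library 1, against 3884 to 11598 in the other 8. The same 4 libraries thus stand apart although only 2 of them were treated with PMA, and both untreated Reh libraries are of the other kind. A pair of sequencing instruments is named for the series, and whether these 4 libraries were made or sequenced differently is not given in the sources used here. Library kind and PMA cannot be told apart within Reh, and the pairs of L428 and L1236, which hold a library of each kind, give the only measure of the kind itself. Within those pairs the 8 tested genes described here differed between the kinds by at most 0.31 on the log2(FPKM + 1) scale, the largest being IGLL1 at -0.31 in L428. Of the 8, only SOX4 exceeded 1 FPKM in these pairs, so they measure the effect of library kind for SOX4 and hardly for the rest. Of the 346 genes at least 2-fold lower in the low-PLCG2 library of both pairs, 99 were also lower after PMA, which is 28.6% of the first list, where 11.8% of all genes were lower, and 5.72% of the second. Of the 158 at least 2-fold higher in both pairs, 32 were also higher after PMA, which is 20.3%, where 10.5% of all genes were higher, and 2.09%, and SOX4 was in neither group. Library kind was set by PLCG2, under 10 FPKM or not. Values with library kind as a term of the fit, an alternative added after seeing the data, are given for the precursor genes called after PMA and for the medians of the 6 gene lists.

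**Figure D1:**
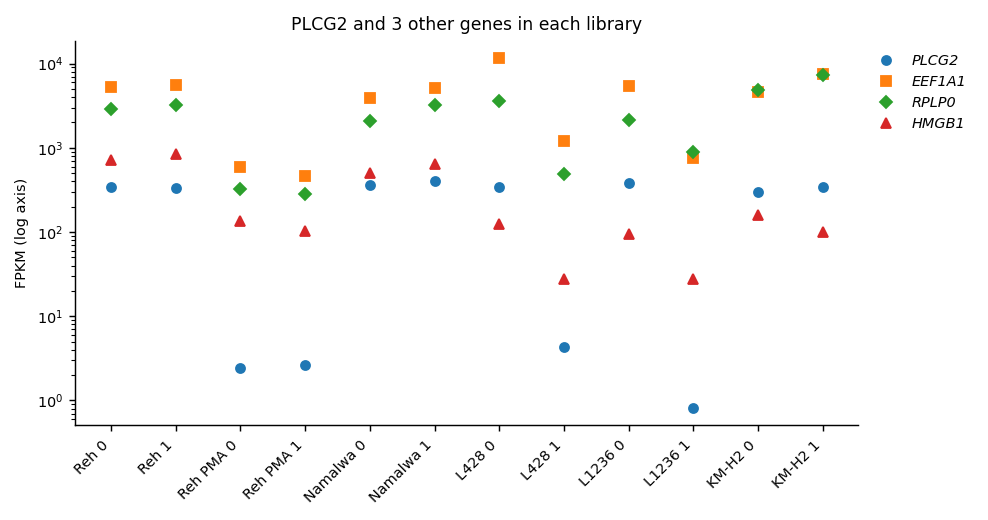
FPKM (log axis) of PLCG2, EEF1A1, RPLP0 and HMGB1 in each of the 12 libraries, 1 point per gene and library. PLCG2 lies between 0.817 and 4.26 in both PMA libraries, L428 library 1 and L1236 library 1, and between 298 and 404 in the other 8.

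In untreated Reh, 7 of the 9 genes exceeded 1 FPKM in both libraries and their summed FPKM was 1525 and 1388. The sum was 235 and 278 after PMA, 224 and 227 in Namalwa, and between 0.0974 (KM-H2) and 9.75 (L428) in the cHL lines. IGLL1 led the sum in untreated Reh, MME in Namalwa, and SOX4 after PMA and in all 6 cHL libraries. CD34 went against the progenitor label of the set: it was listed at 0 in both untreated Reh and both Namalwa libraries, reached 0.0501 FPKM after PMA, and was highest at 0.456 in 1 of the L428 libraries, whose partner was at 0. VPREB1 went against the precursor line, since it was listed at 0 in Reh and detected in the Burkitt's line.

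**Figure D2:**
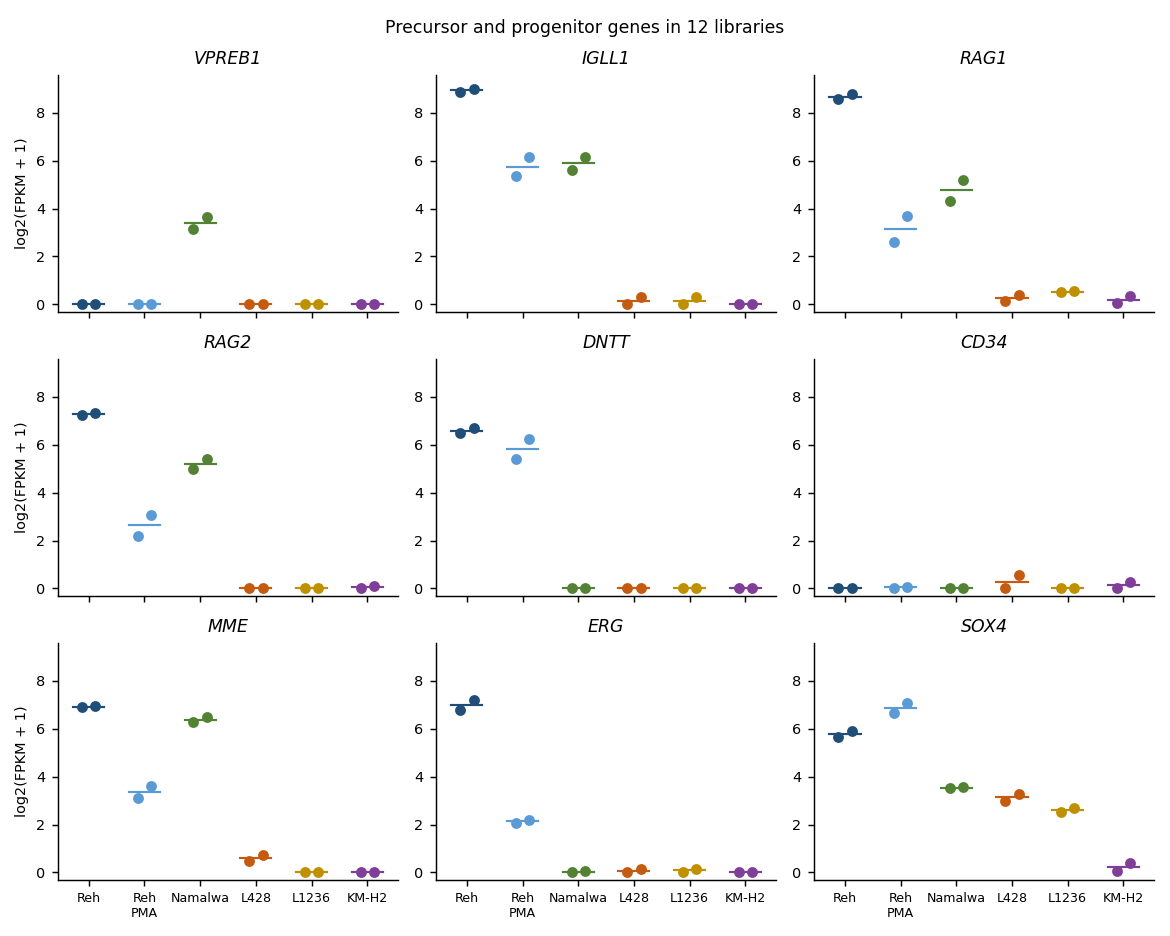
log2(FPKM + 1) of the 9 genes in the 12 libraries, with the lower library of each group drawn on the left, the higher on the right and a bar at their mean. Untreated Reh is highest for IGLL1, RAG1, RAG2, DNTT, MME and ERG, Namalwa for VPREB1 and PMA-treated Reh for SOX4, while CD34 stays at or below 0.456 FPKM in every library.

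Differences were tested with limma on log2(FPKM + 1) across all 14679 genes, and a gene was called at a Benjamini-Hochberg adjusted p below 0.05 and an absolute log2 difference of at least 1. Genes high only in control lines passed the filter through those lines. These were DNTT and ERG for Reh, VPREB1 for Namalwa, and IGLL1, RAG1, RAG2 and MME for both. Such genes could hardly be called higher in the cHL lines. The counts that follow therefore describe the set and do not support it. After PMA, 5 of the 8 tested genes were lower (IGLL1, RAG1, RAG2, MME and ERG), where 11.8% of all genes were called lower, and SOX4 was higher, where 10.5% were called higher. The SOX4 call was lost under several alternatives given below. DNTT and VPREB1 were not called. The same 6 were called with library kind as a term, but 5 of them (all but SOX4) were at most 0.641 FPKM in the L428 and L1236 libraries that set the term, so it could hardly move them. In that fit 2644 of all 14679 genes were called after PMA in either direction, against 3265 without the term. In Namalwa against untreated Reh, 6 genes were lower (IGLL1, RAG1, RAG2, DNTT, ERG and SOX4), against 11.5% of all genes, VPREB1 was higher, against 7.5%, and MME was not called.

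Each cHL line against untreated Reh had 7 genes lower and 0 higher, all tested genes but VPREB1, which was listed at 0 on both sides. In L428, 14.8% of all genes were called lower and 15.6% higher, in L1236 14.9% and 15.8%, and in KM-H2 15.5% and 17.2%. These 4 line comparisons and the PMA comparison share the untreated Reh libraries. In the mean of the 3 cHL lines against the mean of Reh and Namalwa, 8 of 8 tested genes were lower, against 10.9% of all genes, and 0 were higher, against 13.7%. DNTT and ERG were lower there through Reh alone, and VPREB1 through Namalwa alone. The pooled test uses the spread between libraries of a line. With the 5 lines as units an exact two-sided permutation test that doubles the smaller tail could give no p below 0.2. Between cHL lines, limma called 0 of the 8 for L428 against L1236, where 21.9% of all genes were called in either direction and 2 of the 8 had an unadjusted p below 0.05. Every member but SOX4 was at most 0.641 FPKM in all cHL libraries. On the log2(FPKM + 1) scale only SOX4 could therefore reach the limit of 1, and these counts do not measure agreement between the lines. SOX4 alone was called for L428 against KM-H2 and for L1236 against KM-H2, where 26.6% of all genes were called in each comparison.

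**Figure D3:**
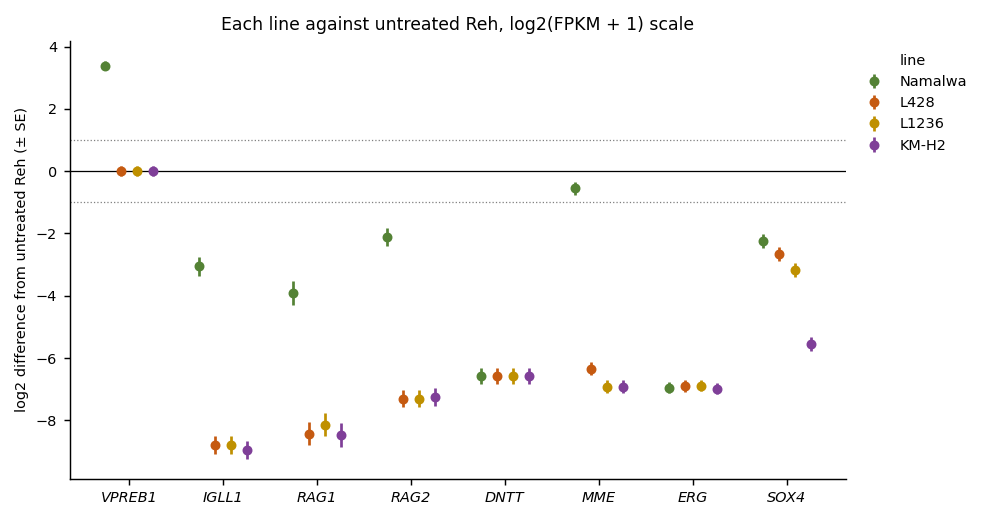
log2 difference from untreated Reh (± SE from limma, 2 libraries per group) of the 8 tested genes in Namalwa, L428, L1236 and KM-H2, on the log2(FPKM + 1) scale, with dotted lines at -1 and 1. Namalwa lies nearer to Reh than the cHL lines do for IGLL1, RAG1, RAG2 and MME, while DNTT, listed at 0 in Namalwa and all cHL libraries, and ERG do not separate the 4 lines.

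RAG1 and RAG2, the recombinase, are neighbours on chromosome 11, on opposite strands. GENCODE lifted to GRCh37 places RAG1 at chr11:36531922-36614706 on the forward strand and RAG2 at chr11:36597124-36619829 on the reverse strand, and 588 exonic bases are annotated to both. The library kit keeps strand, but whether strand was used in counting is not given in the sources used here, so it is not known whether fragments over those bases were divided between the 2 genes. RAG2 also shares 372 exonic bases with IFTAP on the opposite strand. The bases just before each start are shown because both genes moved together. They come from RefSeq's table for GRCh38.p14 and were placed by exact match on GRCh37, RAG1 at chr11:36531653-36531902 on the forward strand and RAG2 at chr11:36619787-36620036 on the reverse strand, and capitals mark E-boxes, CANNTG.
RAG1: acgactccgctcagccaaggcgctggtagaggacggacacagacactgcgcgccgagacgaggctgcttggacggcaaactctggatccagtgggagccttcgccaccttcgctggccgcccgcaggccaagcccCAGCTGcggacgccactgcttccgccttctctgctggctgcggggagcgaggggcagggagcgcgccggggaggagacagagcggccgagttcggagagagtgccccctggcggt
RAG2: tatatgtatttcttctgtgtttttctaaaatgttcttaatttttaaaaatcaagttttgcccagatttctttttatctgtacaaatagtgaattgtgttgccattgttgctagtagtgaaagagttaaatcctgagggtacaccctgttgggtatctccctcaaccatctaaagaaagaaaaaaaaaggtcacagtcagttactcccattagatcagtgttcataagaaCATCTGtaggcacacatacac
Each of these windows of 250 bases held 1 E-box, 115 bases before the start in RAG1 and 21 bases before it in RAG2. Starts here are RefSeq's, and which start of a gene these cells use was not tested. The RAG2 window, its E-box included, reaches into the gene as GENCODE places it. An E-box was present in 61.8% of all 35116 promoter windows of this length, so its presence here sets neither gene apart.

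RAG1 stood at 435 and 384 FPKM in untreated Reh, at ranks 221 and 262 among all genes. It was at 35.7 and 19.2 in Namalwa and at 5.09 and 11.9 after PMA, so the 3 ranges did not overlap. After PMA it kept 2.07% of the untreated mean, a log2 difference of -5.53 (SE 0.38, limma adjusted p = 1.75e-05), and -5.70 (adjusted p = 0.000474) with library kind as a term. In Namalwa the difference was -3.91 (SE 0.38, adjusted p = 5.68e-05). RAG1 was low but not 0 in the cHL lines, at 0.413 and 0.488 FPKM in L1236, 0.0912 and 0.301 in L428, and 0.0412 and 0.273 in KM-H2. L1236 lay above the other 2 lines, whose ranges overlapped, yet the difference between L428 and L1236 was only -0.28 (SE 0.38, adjusted p = 0.657).

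RAG2 followed the same order down to Reh with PMA. It was at 161 and 152 FPKM in untreated Reh, 40.8 and 30.8 in Namalwa, and 3.59 and 7.37 after PMA, again without overlap. PMA left 3.5% of the untreated mean, a log2 difference of -4.67 (SE 0.28, limma adjusted p = 8.48e-06), and library kind as a term could not move that estimate, because RAG2 was listed at 0 in all 4 libraries that set the term. Namalwa differed from Reh by -2.11 (SE 0.28, adjusted p = 0.000445), and kept 22.9% of the Reh mean of RAG2 against 6.7% of that of RAG1. Among the cHL libraries RAG2 was listed at 0 in 5 of 6 and at 0.0656 in KM-H2 library 1.

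The balance of the 2 recombinase genes differed between the groups that express them. RAG1 was 2.52 and 2.71 times RAG2 in the untreated Reh libraries, 1.42 and 1.61 times after PMA, and 0.875 and 0.623 times in Namalwa. The 3 ranges did not overlap, and RAG2 exceeded RAG1 in both Namalwa libraries. The ratio itself was not tested.

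DNTT, the transferase that acts on the ends the recombinase leaves, was confined to Reh. It stood at 87.9 and 103 FPKM in untreated Reh and at 75.0 and 41.6 after PMA, and was listed at 0 in the other 8 libraries. Both PMA libraries lay below both untreated ones, but the log2 difference of -0.76 (SE 0.26, limma adjusted p = 0.0523) was not called, and the 2 PMA libraries lay further apart than the untreated ones. The difference was -0.96 after quantile normalization (limma adjusted p = 0.0107) and -0.91 after upper quartile scaling (adjusted p = 0.0194), where only the limit of 1 was missed. Without PMA library 0 the difference was -1.17 (adjusted p = 0.00689) and was called, and without PMA library 1 it was -0.34 (adjusted p = 0.261). PMA left 61.1% of the mean of DNTT, against 2.07% of that of RAG1, so that the DNTT to RAG1 ratio was 0.202 and 0.269 in untreated Reh and 3.51 and 14.7 after PMA. Whether the 2 changes differ was not tested. The bases before the start of DNTT, on the forward strand at chr10:98063941-98064190 of GRCh37, are shown as those of a gene that kept 61.1% of its untreated mean, with E-boxes in capitals.
DNTT: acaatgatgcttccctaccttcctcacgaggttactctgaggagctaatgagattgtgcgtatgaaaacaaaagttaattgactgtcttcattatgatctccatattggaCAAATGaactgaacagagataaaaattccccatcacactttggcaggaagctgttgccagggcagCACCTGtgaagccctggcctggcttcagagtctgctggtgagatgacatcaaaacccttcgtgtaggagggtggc
The window held 2 E-boxes, 140 and 75 bases before the start, and the second is CAGGTG read on the other strand, a form present in 17.5% of all promoter windows.

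Of the surrogate light chain genes, IGLL1 (chr22:23915312-23922489, reverse strand) was the most abundant of the set in untreated Reh. It was at 513 and 472 FPKM in untreated Reh, ranks 202 and 229 among all genes. Namalwa, at 48.0 and 70.2, and PMA-treated Reh, at 39.9 and 69.7, overlapped each other and lay below untreated Reh. The log2 difference after PMA was -3.20 (SE 0.29, limma adjusted p = 9.21e-05), and -2.90 (adjusted p = 0.00283) with library kind as a term, with 11.1% of the untreated mean left. Namalwa differed from Reh by -3.06 (SE 0.29, adjusted p = 5.34e-05). IGLL1 was listed at 0 in KM-H2 and in library 1 of L428 and of L1236, and at 0.237 and 0.227 in their partners. IGLL1 has near-copies in the immunoglobulin lambda locus, IGLL5 among them, and how shared fragments were divided is not given, so its level is uncertain. IGLL5 was listed at 0 in Reh with and without PMA and stood at 281 and 289 in Namalwa and at 5.87 and 6.14 in KM-H2. The bases before the start of IGLL1 (chr22:23922478-23922727 of GRCh37, reverse strand) are shown because it was lower after PMA as RAG1 and RAG2 were. Capitals mark E-boxes, the EBF-type letters CCCNNGGG and the RUNX-type letters TGTGGT, on either strand.
IGLL1: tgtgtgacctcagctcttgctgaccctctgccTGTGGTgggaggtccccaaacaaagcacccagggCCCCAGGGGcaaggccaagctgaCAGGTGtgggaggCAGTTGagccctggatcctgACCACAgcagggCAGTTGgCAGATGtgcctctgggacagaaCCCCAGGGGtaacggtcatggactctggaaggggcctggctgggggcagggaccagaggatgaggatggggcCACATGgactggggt
The window held 5 E-boxes, 1 of them CAGGTG, 2 matches to TGTGGT and 4 to CCCNNGGG, which lie as overlapping pairs at 2 places. CCCNNGGG was present in 17.1% and TGTGGT in 11% of all promoter windows. The windows of RAG1 and RAG2 held neither, and a match is a description of letters, not a bound site.

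VPREB1 (chr22:22599192-22599927, forward strand), the partner of IGLL1, was detected in Namalwa at 11.4 and 7.89 FPKM and was listed at 0 in the other 10 libraries, those of Reh included. Namalwa was called higher than Reh (limma adjusted p = 6.89e-07), but VPREB1 was tested only because Namalwa passed the filter, and no fold is given against a group at 0. IGLL1 was 4.22 and 8.89 times VPREB1 in the Namalwa libraries, the only group with both genes above 1 FPKM. In the pooled comparison of cHL lines with controls VPREB1 was called lower through Namalwa alone.

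MME, the CD10 gene (chr3:154741913-154901493, forward strand), was the member that Namalwa and Reh shared most closely. Untreated Reh had 123 and 118 FPKM and Namalwa 76.7 and 88.3, ranges that did not overlap, and the log2 difference of -0.55 (SE 0.21, limma adjusted p = 0.0941) was not called. After PMA it was at 7.72 and 11.1, which is 7.8% of the untreated mean, a difference of -3.57 (SE 0.21, adjusted p = 8.42e-06) and of -3.44 (adjusted p = 0.000303) with library kind as a term. In the cHL lines MME was at 0.382 and 0.641 in L428 and listed at 0 in the 4 libraries of L1236 and KM-H2. That gap was not called (0.59, SE 0.21, adjusted p = 0.0623 against L1236), but with a pseudocount of 0.1 it was 2.58 and called against both lines (adjusted p = 0.000271 against L1236). An antisense gene, MME-AS1, shares 214 exonic bases with MME.

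CD34 (chr1:208054317-208084747, reverse strand), the other surface marker, stayed under 0.5 FPKM throughout and was not tested. Its values above 0 were 0.0265 and 0.0501 after PMA, 0.0179 in 1 L1236 library, 0.456 in 1 L428 library and 0.213 in 1 KM-H2 library. The ranges of L428, KM-H2 and PMA-treated Reh overlapped.

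ERG (chr21:39751949-40033704, reverse strand), the ETS factor, was a Reh gene in these libraries. It was at 145 and 108 FPKM in untreated Reh and at 3.62 and 3.25 after PMA, and did not exceed 0.121 in any other library. PMA left 2.71% of the untreated mean, a log2 difference of -4.83 (SE 0.19, limma adjusted p = 8.74e-07) and of -4.84 (adjusted p = 3.42e-05) with library kind as a term. Namalwa, at 0 and 0.0447 FPKM, was within the ranges of the cHL lines. ERG was called lower than in untreated Reh in all 4 other lines, with differences of -6.95 in Namalwa (adjusted p = 4.14e-08), -6.91 in L428 (adjusted p = 1.08e-07) and -6.88 in L1236 (adjusted p = 4.56e-08), each with an SE of 0.19, and with an adjusted p of 4.32e-08 in KM-H2, where it was listed at 0.

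SOX4 (chr6:21593982-21598850, forward strand) was the only tested member called higher after PMA and the only member above 1 FPKM in a cHL line. It was at 59.7 and 49.8 FPKM in untreated Reh and at 101 and 133 after PMA, a ratio of means of 2.13. The log2 difference was 1.07 (SE 0.22, limma adjusted p = 0.00649), just past the limit of 1, and 1.14 (adjusted p = 0.0398) with library kind as a term. The call was lost under several alternatives, although both PMA libraries lay above both untreated ones: the difference was 1.08 with an adjusted p of 0.0783 at a pseudocount of 0.1, 0.85 after quantile normalization, 0.91 after upper quartile scaling, 0.94 without Reh library 1 and 0.87 without PMA library 1. Over all alternatives that were run the direction was the same.

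Across lines SOX4 fell into a ladder whose steps did not overlap. Below Reh came Namalwa at 10.9 and 10.4 FPKM, L428 at 6.94 and 8.79, L1236 at 5.49 and 4.81, and KM-H2 at 0.334 and 0.0562. Against untreated Reh the log2 differences were -2.25 in Namalwa (limma adjusted p = 6.13e-05), -2.65 in L428 (adjusted p = 1.25e-05), -3.18 in L1236 (adjusted p = 3.67e-06) and -5.55 in KM-H2 (adjusted p = 1.87e-07), each with an SE of 0.22. L428 and L1236 did not pass the test against each other (0.52, adjusted p = 0.108). The bases before the start of SOX4 (chr6:21593732-21593981 of GRCh37, forward strand) are shown as those of the member that went the other way after PMA, with E-boxes and CCCNNGGG in capitals.
SOX4: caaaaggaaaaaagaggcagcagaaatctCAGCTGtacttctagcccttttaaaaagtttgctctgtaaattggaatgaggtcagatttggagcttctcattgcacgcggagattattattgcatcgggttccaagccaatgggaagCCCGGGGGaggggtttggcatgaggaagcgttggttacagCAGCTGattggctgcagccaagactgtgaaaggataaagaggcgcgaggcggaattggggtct
The window held 2 E-boxes and 1 match to CCCNNGGG. Of the 15 windows of the 9 genes, 14 held an E-box, 8 CAGGTG, 5 CCCNNGGG and 1 TGTGGT, but MME and ERG have 4 windows each, some of which overlap and share a site. By gene the counts were 9, 5, 5 and 1 of 9, VPREB1 included although its window has no exact match in GRCh37, and neither the genes lower after PMA nor SOX4 and DNTT were set apart by the E-box. Of all 35116 promoter windows 61.8% held an E-box, 17.5% CAGGTG, 17.1% CCCNNGGG and 11% TGTGGT.

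**Figure D4:**
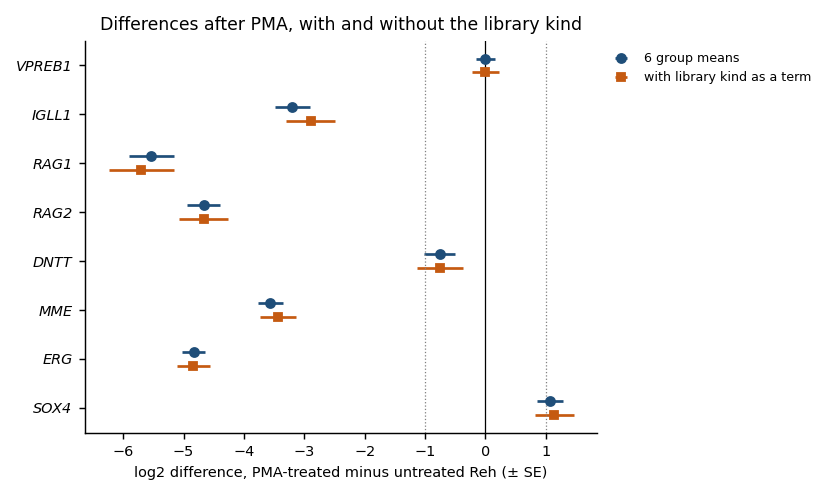
log2 difference between PMA-treated and untreated Reh (± SE from limma, 2 libraries per group) of the 8 tested genes, fitted with 6 group means (circles) and with library kind as an added term (squares), with dotted lines at -1 and 1. RAG1, ERG, RAG2, MME and IGLL1 lie between -5.70 and -2.90 in both fits, DNTT at -0.76 in both, and SOX4 at 1.07 and 1.14.

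Among the members, RAG1 and RAG2 had the most similar pattern, with Pearson r = 0.986 for log2(FPKM + 1) over the 12 libraries. RAG2 and MME followed at 0.982, and IGLL1 correlated with RAG1, RAG2 and MME at 0.954 to 0.959. VPREB1 correlated with no member above 0.536. These coefficients describe 6 groups of 2 libraries from 5 lines, which share depth and library kind, and are given without a test.

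Outside the set, 11586 genes that reached a group mean of 5 FPKM were searched for the nearest patterns. For RAG1 they were LINC00426 (r = 0.995), PDE3B (0.986) and RAP1GAP2 (0.981), and for RAG2 PDE3B (0.994), TRAF3IP2 (0.981) and LINC00426 (0.976). LINC00426, a non-coding RNA gene, had mean FPKM of 27.9 in untreated Reh, 1.89 after PMA and 4.13 in Namalwa. For IGLL1 they were INSR, the insulin receptor gene (0.995), FAM213A (0.993) and ZNF439 (0.993). INSR went from a mean of 41.3 in untreated Reh to 13.2 after PMA and 12 in Namalwa, and its mean was at most 0.116 in the cHL lines. For MME they were LRRC34 (0.989), RCSD1 (0.989) and DOK3, an adaptor protein gene (0.981).

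DNTT was most like HIST1H3E, a histone H3 gene (0.999), NETO1 and TPTEP1 (0.998), all of them near 0 outside Reh. HIST1H3E had a mean of 1562 FPKM in untreated Reh and of 790 after PMA, against 0.178 in Namalwa and 0 in the cHL lines. ERG was nearest to HMX2 (0.999), UNC79 (0.997) and ELOVL2 (0.996), and VPREB1 to ROR1, a receptor tyrosine kinase gene (0.999), STC2 (0.999) and KLRC4 (0.998), each with a mean above 1 FPKM in Namalwa alone. SOX4 was nearest to MEF2C, a transcription factor gene (0.982), PISD (0.961) and PLIN2, a lipid droplet protein gene (0.959). MEF2C had means of 161 FPKM in untreated Reh, 279 after PMA, 18.5 in Namalwa, 16.8 in L428, 19.1 in L1236 and 2.0 in KM-H2. Unlike for SOX4, L1236 thus lay above Namalwa and L428.

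The cuts of the recombinase are repaired by end joining. The list for this step held 12 genes, all tested, and included HMGB1 and HMGB2 besides end-joining genes. After PMA 2 were lower, where 11.8% of all genes were, and 0 were higher, where 10.5% were. The 2 were HMGB1 (-2.69, limma adjusted p = 0.0183) and the end-joining gene C9orf142, now named PAXX (-1.34, adjusted p = 0.00608). The list's median log2 difference was -0.34 against -0.03 for all genes tested, and -0.12 with library kind as a term. HMGB1, a DNA-bending cofactor of the recombinase, was 713 and 836 FPKM in untreated Reh and 103 and 136 after PMA, but it also moved with the library kind, and the call was lost with that term (-0.77, adjusted p = 0.225). In Namalwa 0 of the 12 were lower than in Reh (11.5% of all genes) and 2 were higher (7.5%), POLL (2.51, adjusted p = 9.27e-06) and POLM (1.65, adjusted p = 0.00176), the polymerases lambda and mu that fill gaps at joins. POLL was at 0.199 and 0.213 FPKM in untreated Reh and between 5.31 and 11.2 in Namalwa and the cHL lines. In the 3 cHL lines against the controls, 4 of the 12 were lower (10.9% of all genes) and POLL was higher (13.7%), with a list median of -0.67 against 0.02 for all genes.

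For the pre-B receptor and its signalling, 10 of 11 listed genes were matched and tested. After PMA 5 were lower (11.8% of all genes) and 0 higher (10.5%), with a list median of -1.72. With library kind as a term 4 were lower and the median, in which PLCG2 is included, was -0.94. PLCG2 went from -6.60 to 0.29, but the kinds were set by PLCG2 itself, so its difference had to shrink with the term. In that fit 2644 of all genes were called after PMA in either direction, against 3265 without the term. BLNK, the adaptor that links the receptor to PLCG2, went from 63.0 and 67.4 FPKM to 1.68 and 1.90 (-4.57, limma adjusted p = 3.88e-06), and CD79B, a receptor signalling chain, from 394 and 414 to 39.0 and 86.2 (-2.78, adjusted p = 0.000583). The others were VPREB3, which is related to VPREB1, and the kinase genes BLK and SYK, and VPREB3 (-2.48, adjusted p = 0.0109) was not called with library kind as a term, although its difference was no smaller (-2.67, adjusted p = 0.0558). CD79A, the partner of CD79B, stood at 336 and 429 FPKM before and 947 and 1102 after PMA, which was not called (1.43, adjusted p = 0.0602). In Namalwa 4 of the 10 were higher than in Reh (7.5% of all genes), with IGLL5, BLK and LYN changing most, and 2 were lower (11.5%). Against the controls, 8 of the 10 were lower in the cHL lines (10.9% of all genes), with a list median of -4.69, led by CD79B (-8.84, adjusted p = 2.43e-08) and CD79A (-7.48, adjusted p = 2.18e-07).

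Of 14 early B-cell regulators, 10 were lower after PMA (11.8% of all genes) and 0 higher (10.5%), with a list median of -1.93. MYB, a progenitor transcription factor, went from 99.0 and 161 FPKM to 9.55 and 17.5 (-3.19, limma adjusted p = 0.00235), IL7R, the interleukin-7 receptor chain, from 146 and 183 to 15.4 and 21.4 (-3.10, adjusted p = 3.64e-05), and LEF1 from 218 and 243 to 29.3 and 30.1 (-2.91, adjusted p = 5.54e-05). With library kind as a term, 2644 of all genes were called after PMA in either direction, against 3265 without it. In that fit the list median was -1.58 and 6 of the 10 were called. FOXO1 (-1.51 without the term, -1.52 with it, adjusted p = 0.0637), PAX5 (-1.97 and -1.64, 0.0611), TCF3 (-1.35 and -0.99, 0.0463) and BCL11A (-1.99 and -1.12, 0.102) were not, and the FOXO1 difference was thus unchanged. In Namalwa 2 of the 14 were higher than in Reh (7.5% of all genes), led by IKZF3 (4.83, adjusted p = 6.17e-06), and 5 were lower (11.5%), led by IL7R (-4.71, adjusted p = 1.14e-06) and EBF1 (-2.31, adjusted p = 0.000156), with a list median of -0.05. In the cHL lines against the controls 11 were lower (10.9% of all genes) and 1 higher (13.7%), with a median of -1.91.

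Of 15 other progenitor genes 11 were tested. After PMA 3 were lower (11.8% of all genes), FLT3, a receptor of early progenitors (-2.61, limma adjusted p = 2.29e-05), MSI2 (-2.13, adjusted p = 0.00159) and LMO2 (-2.03, adjusted p = 0.00176), and PROM1, the CD133 gene, was higher where 10.5% of all genes were (2.67, adjusted p = 5.01e-05), and all 4 were called with library kind as a term. PROM1 went from 2.31 and 3.24 FPKM to 20.2 and 25.9, so that 2 progenitor surface genes moved apart while CD34 stayed near 0. The list median was -0.36, and -0.42 with the term. Namalwa had 8 of the 11 lower than Reh (11.5% of all genes) and 0 higher (7.5%), with a median of -1.88, led by FLT3, which was listed at 0 there, LYL1 and LMO2. MEIS1 went the other way in the cHL lines, at 7.52 to 11.3 FPKM against at most 0.0384 in the control lines (3.42, adjusted p = 1.04e-07), while 5 of the 11 were lower (10.9% of all genes lower, 13.7% higher). KIT, GATA2, TAL1 and HLF did not pass the filter.

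Among 7 SOX and ETS relatives, SOX11 moved with SOX4 and ETS2 with ERG after PMA. SOX11 went from 3.50 and 4.84 FPKM to 20.1 and 21.0 (2.07, limma adjusted p = 4.96e-05) and was listed at 0 in the cHL lines. ETS2 went from 102 and 105 to 13.6 and 26.1 (-2.39, adjusted p = 0.000403) and FLI1, the nearest relative of ERG, from 48.2 and 50.4 to 18.9 and 21.4 (-1.25, adjusted p = 0.00252). These were 1 relative higher (10.5% of all genes) and 2 lower (11.8%), all 3 called with library kind as a term, and the list median was -0.56 and -0.84 with the term. In Namalwa 2 relatives were higher than in Reh (7.5% of all genes), ETS1 (2.46, adjusted p = 0.002) and ETV6 (2.36, adjusted p = 0.00571), and 3 were lower (11.5%). The cHL lines had 4 lower than the controls (10.9% of all genes) and 1 higher (13.7%), with a median of -1.45.

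Mature B-cell genes, listed for contrast, showed no common direction after PMA. Of 8 tested of 10, 1 was higher (10.5% of all genes) and 2 were lower (11.8%): CD22 was higher (1.26, limma adjusted p = 0.00769) and CD72 (-2.18, adjusted p = 0.000617) and TNFRSF13C (-1.22, adjusted p = 0.046) were lower, with a list median of -0.05 and of -0.08 with library kind as a term, and TNFRSF13C was not called with that term although its difference barely moved (-1.20, adjusted p = 0.188). Namalwa had 6 of the 8 higher than Reh (7.5% of all genes) and 0 lower (11.5%), with a median of 1.44, led by CD37 and MS4A1, the CD20 gene. In the cHL lines 4 were lower than in the controls (10.9% of all genes) and 2 higher (13.7%), with a median of -1.07. Of the 5 genes of every cell, ACTB, GAPDH and B2M were not called after PMA, and EEF1A1 (-3.39, adjusted p = 0.0494) and RPLP0 (-3.33, adjusted p = 0.0176) were lower, moved with the library kind and were not called with that term (-0.34 and -1.26, adjusted p = 0.77 and 0.243), while ACTB, 1.41 without the term, was called higher with it (2.70, adjusted p = 0.0331).

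**Figure D5:**
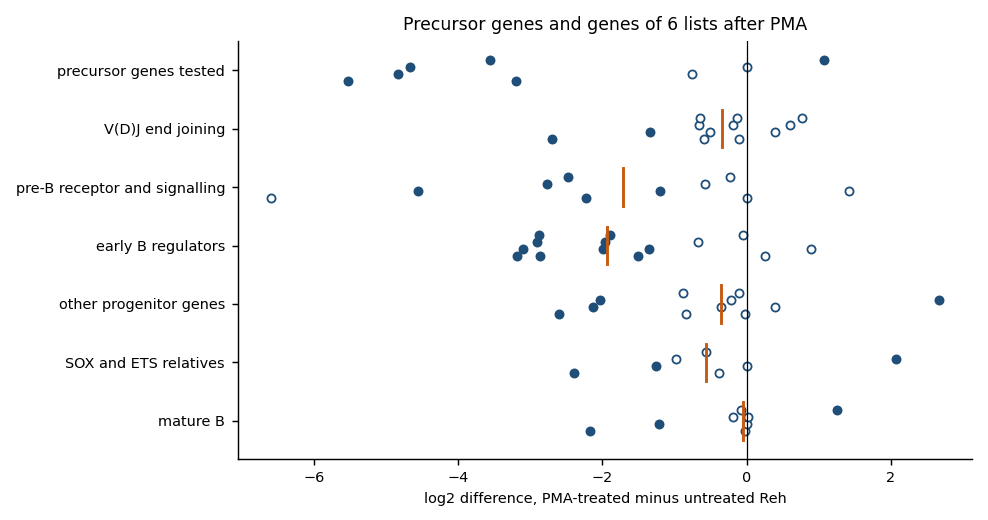
log2 difference between PMA-treated and untreated Reh of the 8 tested precursor genes and of the tested genes of 6 lists, 1 point per gene, filled where called, with an orange bar at the median of each list. The early B regulators have 10 filled points below 0 and a median of -1.93, the mature B genes a median of -0.05, and the unfilled point at the far left is PLCG2 at -6.60.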

How the data were processed

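The authors aligned reads with TopHat2 2.0.11 to hg19 and made the deposited FPKM table with Cuffnorm 2.2.1, per the submitters' processing notes; gene annotation and strand setting are not given in the sources used here. Columns carry the group but no replicate number of the labels, so each was used as an unnumbered library of its group. The members and lists were chosen with earlier results of these data known. limma 3.58.1 (R 4.3.3) was fitted with trend to log2(FPKM + 1), 1 mean per group over 12 libraries (6 residual degrees of freedom), for genes with FPKM of at least 1 in at least 2 libraries. p-values were adjusted over all 14679 genes by Benjamini-Hochberg, and measure only the spread between libraries. Log2 differences understate changes of low genes. Some planned list genes are not reported here, dropped without regard to their values, and list values were computed without them. The fit was tested on simulated data, and the outcome is not given here. Nearest patterns were the 3 genes with the highest Pearson r. From each list up to 3 called genes with the largest difference are named, and those behind small counts; other list genes were named after their values were seen. Alternatives were the pseudocount, the filter, scaling, trend, the libraries fitted and leaving out each library. Promoters are RefSeq's (GRCh38.p14), those of 8 genes placed on GRCh37 (VPREB1's could not be, but its letters were counted), with GENCODE 44 lifted for positions. The starts of the 2 sources can differ, and some windows, those of RAG2, DNTT and IGLL1 among them, reach into the GENCODE gene span.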

Additional observations from a re-analysis of the deposited data

Results flagged for a closer look

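SOX4 differed between cHL lines in its difference from untreated Reh, by the limma test of the lines against each other. L428 lay 2.89 above KM-H2 on the log2(FPKM + 1) scale (SE 0.22, adjusted p = 1.17e-05), with 6.94 and 8.79 FPKM against 0.334 and 0.0562. L1236 lay 2.37 above KM-H2 (SE 0.22, adjusted p = 3.28e-05), with 5.49 and 4.81 FPKM. Both differences kept their direction and call under every alternative that was run, from 2.72 to 4.93 and from 2.2 to 4.33, the upper values at a pseudocount of 0.1. KM-H2 had the lower relative depth, 0.574 and 0.379 of Reh library 0, and its part in the result was not tested.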

How the results depend on the processing

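No paired analysis was possible because the columns carry no replicate number of the labels, and the planned replicate block was not run. Over all alternatives, 943 of 960 differences of the precursor genes kept their direction and call. For the genes of the lists it was 1882 of 1951. The 943 include differences that could not change, such as those of VPREB1 and DNTT between groups both listed at 0. Between cHL lines all precursor genes but SOX4 were also under 1 FPKM, so the count does not measure robustness. With a pseudocount of 0.1, MME was called, which gave 1 gene called for L428 against L1236 and 2 for L428 against KM-H2. Over all genes 3771 and 4595 were then called in these comparisons, against 3216 and 3904. Calls in the pooled cHL comparison went from 2014 higher and 1600 lower to 3050 and 2262, and the cause was not tested. With only the groups compared in the fit, so fewer libraries, genes called fell to 2052 (L428 against L1236) and 1972 (L428 against KM-H2). Leaving out a library gave 2082 to 2745 genes called after PMA, against 3265; a lone library is then assumed to vary like the other groups. Upper quartile scaling moved the median of all genes after PMA from -0.03 to -0.12 and the share of calls that were higher from 47% to 37.2%. Reversals were among values near 0 in the cHL lines, their cause not tested: ERG, L428 against L1236, was 0.033 after quantile normalization and -0.096 to 0.053 when a library was left out; RAG1, L428 against KM-H2, was -0.033 with library kind as a term, -0.077 without the low-PLCG2 libraries of L428 and L1236, and -0.095 to 0.195 when a library was left out; IGLL1, L428 against L1236, was -0.148 to 0.159 when a library was left out. Depth is known only relative to a library, so a value listed at 0 gives no upper limit.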
